A study of Mus musculus with 10 samples.

Results

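The enzymes that turn cholesterol into bile acids, and the enzymes that join those acids to taurine or glycine, were followed in livers of mice carrying pancreatic tumours. The set holds 10 genes of the 24972 gene symbols in the deposited table, taken by symbol from a list that was drawn up with earlier results of these data known. All 10 were among the 11110 genes that passed the filter on low values and were tested. Liver RNA libraries numbered 10, of which 4 were from mice with T cell-low tumours of the line 6419c1 and 6 from mice with T cell-high tumours of the line 6555c3. Both are clonal lines of pancreatic ductal adenocarcinoma from the KPC mouse model, and each T cell class is a single line here, so that line and class cannot be told apart. The labels give the genotype of every sample as WT and name no age, sex or further treatment. Whether every library stands for a separate mouse is not stated, so each p-value rests on library-to-library spread, part of which may be technical.

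Bile acids are made in hepatocytes along 2 main routes. In the classical route Cyp7a1, the rate-limiting enzyme, hydroxylates cholesterol itself, and Cyp8b1 adds the hydroxyl group that turns the product into cholic acid. In the alternative route the mitochondrial enzyme Cyp27a1 first oxidises the side chain, and Cyp7b1 then hydroxylates the resulting oxysterols. Hsd3b7 and Akr1d1 rebuild the steroid ring in either route, Amacr and Scp2 act on the side chain in peroxisomes, and Slc27a5 and Baat activate and amidate the finished acid. Bile acids that return to the liver lower their own synthesis through the nuclear receptor FXR (Nr1h4) and its target SHP (Nr0b2), a repressor of Cyp7a1 and Cyp8b1.

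The tissue label was borne out by hepatocyte markers, of which 9 of 10 were analysed. Their summed level was 556644 to 767754 scaled counts in T cell-low livers, against 394492 to 682249 in T cell-high livers, a scaled count being the authors' gene count after scaling of the libraries to a common depth. Scaled totals per library ran from 7000659 to 8257373. Markers of bile duct cells summed to 158 to 447 in T cell-low livers, against 108 to 235 in T cell-high livers, and of the 3 of 7 that could be tested all had a positive log2 fold change and 0 passed. The T cell-high libraries were not alike. T cell-high 1, 3, 5 and 6 exceeded all 6 other libraries by 1 log2 unit or more in 93 genes (0.837% of those tested). Among these was the globin gene Hbb-bs, at 3465 to 9359 scaled counts in them and 16.2 to 215 in the others. The 5 erythroid markers together did not follow it, with sums of 43059 to 98086 in T cell-low livers, against 19679 to 41800 in T cell-high 1, 3, 5 and 6 and 26564 to 51907 in T cell-high 2 and 4. This division was seen in the data and is not in the labels, and what lies behind it was not tested. Values against T cell-high 1, 3, 5 and 6 and against T cell-high 2 and 4 are therefore descriptions, since the libraries were divided by their values.

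Promoter sequence (RefSeq, build GRCm38.p6) was at hand for 5 of the 10 genes, and 3 are shown because these genes behaved in different ways. Cyp8b1 had positive fold changes in each comparison, Hsd3b7 was lower in T cell-low livers, and Cyp27a1 divided the T cell-high libraries. Each run holds the 250 bases before the start of transcription, 5′ to 3′ on the gene's strand, at chr9:121916306-121916555 (minus strand) for Cyp8b1, chr7:127800359-127800608 (plus strand) for Hsd3b7 and chr1:74713285-74713534 (plus strand) for Cyp27a1. Capitals mark matches, on either strand, to 3 short words. These are CAAAGTCCA, the core of sites bound by HNF4, CAAGGNCA, the form bound by NR5A2 (LRH-1), and the TATA box word TATAAA.
Cyp8b1: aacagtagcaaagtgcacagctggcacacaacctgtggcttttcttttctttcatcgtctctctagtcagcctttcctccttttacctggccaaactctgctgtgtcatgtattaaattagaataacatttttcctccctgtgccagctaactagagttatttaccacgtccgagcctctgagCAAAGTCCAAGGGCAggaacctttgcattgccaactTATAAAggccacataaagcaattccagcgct
Hsd3b7: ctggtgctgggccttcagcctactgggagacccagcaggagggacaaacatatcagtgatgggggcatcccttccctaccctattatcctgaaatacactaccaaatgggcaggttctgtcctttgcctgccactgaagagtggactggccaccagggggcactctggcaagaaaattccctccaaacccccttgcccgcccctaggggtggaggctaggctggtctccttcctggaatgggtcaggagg
Cyp27a1: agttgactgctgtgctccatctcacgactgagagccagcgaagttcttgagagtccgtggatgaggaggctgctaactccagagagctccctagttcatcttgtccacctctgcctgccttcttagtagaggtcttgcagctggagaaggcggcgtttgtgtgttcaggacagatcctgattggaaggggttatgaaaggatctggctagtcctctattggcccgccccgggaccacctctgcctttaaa
In the Cyp8b1 promoter the HNF4 word, at 67 to 59 bases before the start, and the NR5A2 word, at 60 to 53 bases before it, overlapped, and the TATA word stood at 31 to 26 bases before it. The other promoters shown had none of the 3 words in this window, which says nothing of whether the factors bind there. Of 32851 mouse promoter windows of this length, 0.384% held the HNF4 word, 5.53% the NR5A2 word and 12.4% the TATA word. The words were chosen after values or sequences were seen, so these shares do not weigh the matches in Cyp8b1. Transcripts of the factors themselves, Hnf4a and Nr5a2, are described with the other regulators.

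Of the 10 enzymes, 2 fell in T cell-low livers and 0 rose, when 12.8% of all tested genes were called (7.39% lower and 5.39% higher). The calls were Cyp7b1 of the alternative route and Hsd3b7 of the shared ring reactions. In all, 8 enzymes had a negative and 2 a positive log2 fold change, the 2 being those of the classical route, and the median was -0.75, against 0.003 over all tested genes. At an unadjusted p below 0.05 there were 7 of 10 enzymes, and 34.5% of all tested genes. The number called was 6 without T cell-low 1, when 32.7% of all tested genes were called, and 5 without T cell-high 2, when 20.5% were. Omitting T cell-low 2 left 0 enzymes called and omitting T cell-low 4 left 1 (Cyp7b1), when 0.982% and 1.41% of genes were called. These are whole-liver samples, in which fewer hepatocytes and less RNA per hepatocyte cannot be told apart. Of the 9 hepatocyte markers tested 2 rose and 0 fell, with a median log2 fold change of -0.01. The part of hepatocyte number in the enzyme differences was not tested.

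**Figure D1:**
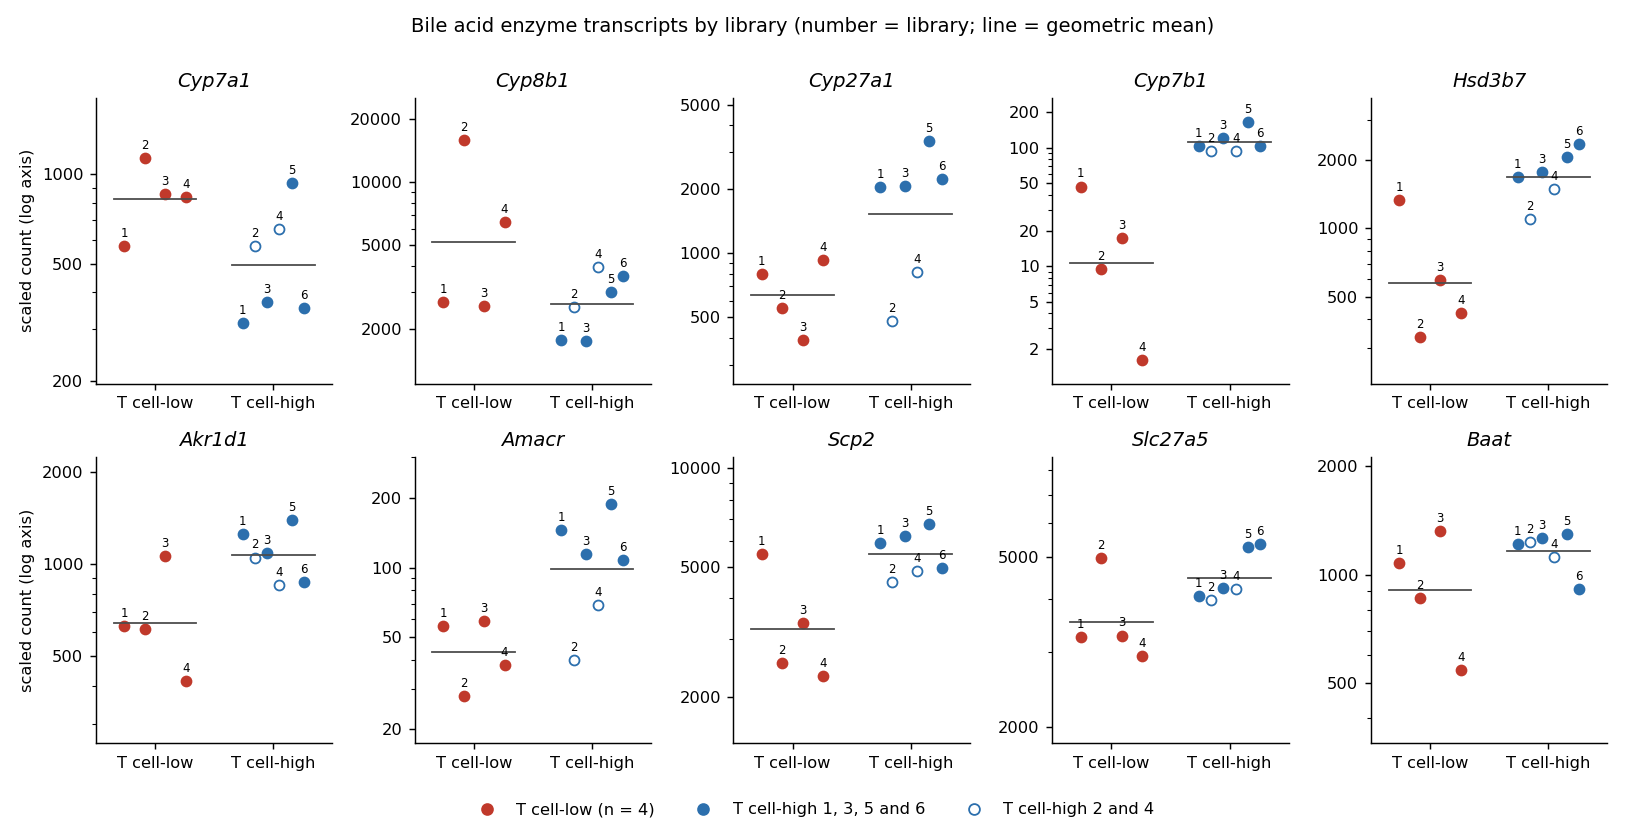
Scaled count (log axis) of each of the 10 enzymes in each library, with T cell-low libraries in red and T cell-high libraries in blue, open circles being T cell-high 2 and 4, numbers naming the library and lines giving the geometric mean of the group. Cyp7b1 is the gene whose groups do not overlap, with at most 47.0 scaled counts in T cell-low livers, against at least 93.4 in T cell-high livers, and Cyp27a1 and Amacr are low in T cell-high 2 and 4.

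Cyp7b1, the oxysterol hydroxylase of the alternative route (chromosome 3, 18071950 to 18243338), showed the largest difference of the 10. Its scaled counts were 47.0, 9.46, 17.4 and 1.63 in T cell-low 1, 2, 3 and 4. Its lowest, median and highest values in T cell-high livers were 93.4, 103 and 165. The groups did not overlap, which was so for 1 of the 10 enzymes, and for 7.39% of all tested genes (4.02% in the lower direction). T cell-low 1 was the nearest to the T cell-high livers and T cell-low 4 the farthest. The means were 18.9 ± 19.8 (SD, n = 4) in T cell-low livers and 113 ± 27.3 (SD, n = 6) in T cell-high livers. The mean log2 values differed by -3.17 (SE 0.59, adjusted p = 0.0131). This log2 fold change is of the scaled count plus 1, and the low values in T cell-low 4 and 2 make it depend on that addition, since it was -2.67 with 5 added. The log2 fold change of Cyp7b1 was -3.29 against T cell-high 1, 3, 5 and 6 and -2.92 against T cell-high 2 and 4. With T cell-low 2 left out it no longer passed (adjusted p = 0.0510).

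Cyp27a1, the mitochondrial sterol hydroxylase that opens the alternative route (chromosome 1, 74713574 to 74737892), did not separate the 2 groups but the T cell-high libraries from each other. It had 802, 553, 390 and 933 scaled counts in T cell-low 1, 2, 3 and 4. Among T cell-high livers it had 2064, 2072, 3380 and 2240 in libraries 1, 3, 5 and 6, but 482 and 820 in libraries 2 and 4. The last pair lay within the range of the T cell-low livers, and Cyp27a1 was itself 1 of the 93 genes that set T cell-high 1, 3, 5 and 6 apart, with a gap of 1.14 on the log2 scale. Its log2 fold change was -1.27 (SE 0.48, adjusted p = 0.0868) against all T cell-high libraries. Against T cell-high 1, 3, 5 and 6 it was -1.91, and against T cell-high 2 and 4 it was 0.01. As Cyp27a1 is among the genes that define this division, these values are descriptions, and no call on them supports a difference. Without T cell-high 2 alone the adjusted p was 0.0187. Other transcripts were read along this division. Hepatocyte markers summed to 556811 to 682249 scaled counts in T cell-high 1, 3, 5 and 6 and to 394492 and 501251 in T cell-high 2 and 4. Albumin (Alb) had 219126 to 295529 in the 4 and 68423 and 131954 in the pair. Alb is itself among the hepatocyte markers and makes up much of their sums. The sums and Alb are therefore not separate readings, and the sums do not show that the other markers differed. Kupffer cell markers, with 10 of 10 genes measured and none at 0 throughout, summed to 3601 to 10059 in the 4 and to 9447 and 13199 in the pair. These Kupffer sums overlapped. The part of any of these in the Cyp27a1 difference was not tested.

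The classical route enzymes had positive log2 fold changes, and neither passed the test. Cyp7a1 (chromosome 4, 6265612 to 6275633) had 575, 1136, 861 and 840 scaled counts in T cell-low 1, 2, 3 and 4. The lowest, median and highest values in T cell-high livers were 314, 473 and 935. All 4 T cell-low values lay above the T cell-high median, but 1 of them (T cell-low 2) lay above every T cell-high value, and T cell-high 4 and 5 lay within the T cell-low range. The log2 fold change was 0.75 (SE 0.31, adjusted p = 0.112, 95% confidence interval 0.08 to 1.42). The interval is not adjusted for the number of genes tested, and a difference was not shown after adjustment. Cyp8b1 (chromosome 9, 121914356 to 121916305), whose promoter is shown above, had 2671, 15891, 2576 and 6500 scaled counts in T cell-low 1, 2, 3 and 4. Its lowest, median and highest values in T cell-high livers were 1745, 2769 and 3930. T cell-low 2 and 4 lay above every T cell-high library and T cell-low 1 and 3 within their range. The log2 fold change was 0.97 (SE 0.46, adjusted p = 0.148, 95% confidence interval -0.01 to 1.96). Both passed once T cell-low 1 was left out (adjusted p = 0.0440 for Cyp7a1 and 0.0465 for Cyp8b1). With T cell-low 2 left out, the library of the highest value for both, the log2 fold change was 0.59 for Cyp7a1 and 0.43 for Cyp8b1 (adjusted p = 0.295 and 0.464). Against T cell-high 2 and 4 the log2 fold changes were 0.43 for Cyp7a1 and 0.71 for Cyp8b1, which are descriptions.

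**Figure D2:**
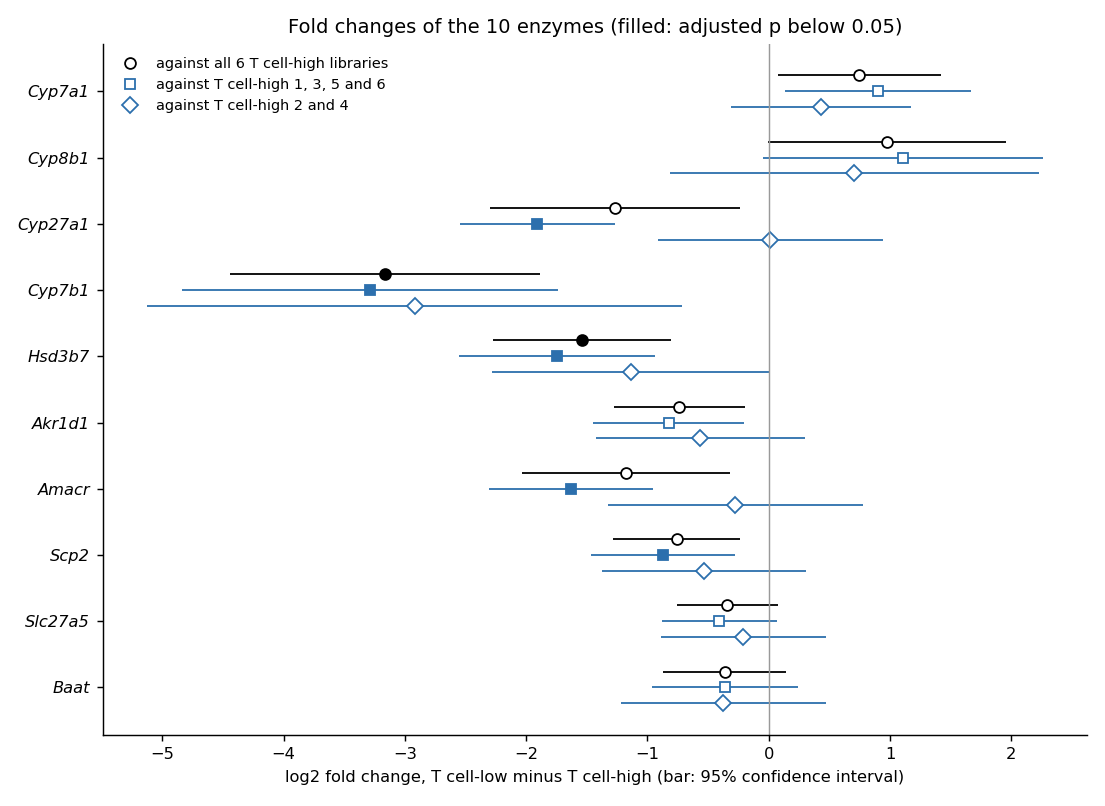
Log2 fold change of each enzyme, T cell-low minus T cell-high, with its 95% confidence interval, against all 6 T cell-high libraries (circles), against T cell-high 1, 3, 5 and 6 (squares) and against T cell-high 2 and 4 (diamonds), filled where the adjusted p was below 0.05. The squares and diamonds rest on a division made from the values, so their fill is no independent test, and Cyp27a1 moves from -1.91 to 0.01 with the choice of comparator, while Cyp7b1 stays between -3.29 and -2.92.

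The balance of the routes was described by the ratio of a classical to an alternative route enzyme within each library, with 1 added to both scaled counts. The log2 ratio of Cyp7a1 to Cyp7b1 was 3.58, 6.77, 5.55 and 8.32 in T cell-low 1, 2, 3 and 4, and 1.58 to 2.79 in T cell-high livers. The ratio of Cyp8b1 to Cyp7b1 was 5.80, 10.6, 7.13 and 11.3 in the same T cell-low libraries, and 3.84 to 5.38 in T cell-high livers. Neither ratio overlapped between the groups, as Cyp7b1 alone did not. The group means of these log2 ratios differed by 3.91 and 4.14. These differences depend on the low Cyp7b1 values, and were 3.41 and 3.64 with 5 added to the scaled counts, and 3.16 and 3.28 without T cell-low 4. Ratios to Cyp27a1 did overlap. For Cyp7a1 to Cyp27a1 the log2 ratio was -0.48, 1.04, 1.14 and -0.15 in T cell-low 1, 2, 3 and 4. Among T cell-high livers it was -2.71 to -1.85 in libraries 1, 3, 5 and 6 and 0.25 and -0.32 in libraries 2 and 4. For Cyp8b1 to Cyp27a1 it was 1.73 to 4.84 in T cell-low livers, -0.25 to 0.67 in T cell-high 1, 3, 5 and 6, and 2.26 to 2.40 in T cell-high 2 and 4. The difference of the group means was 2.02 for the Cyp7a1 ratio and 2.24 for the Cyp8b1 ratio, and it was 0.42 and 0.69 with T cell-high 2 and 4 as the comparators. A higher classical to alternative ratio in T cell-low livers was thus seen with Cyp7b1 under each choice of comparator, and with Cyp27a1 it was smaller than the spread of the T cell-low libraries (SD 0.82 and 1.30) when T cell-high 2 and 4 were the comparators. Most of the difference in the Cyp7b1 ratios was that of Cyp7b1 itself (log2 fold change -3.17), and neither classical route enzyme passed the test. No p is given for these ratios, because the enzymes were chosen with earlier results of these data known.

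**Figure D3:**
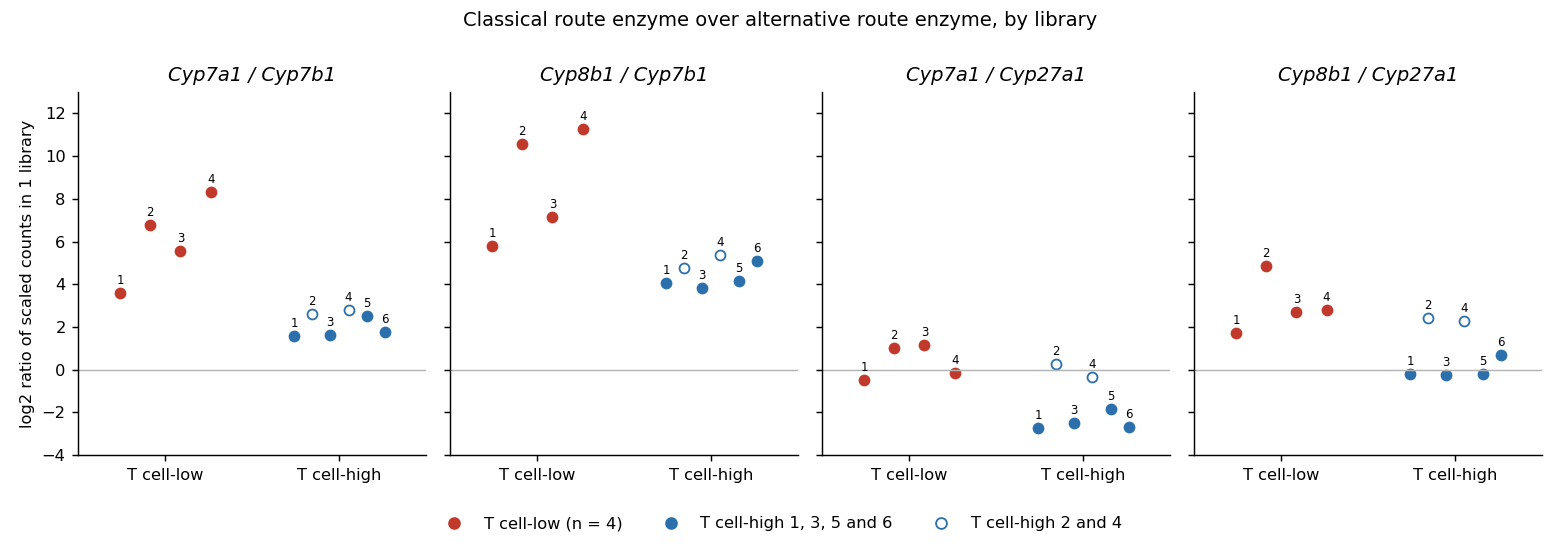
Log2 ratio of a classical route enzyme to an alternative route enzyme within each library, T cell-low on the left and T cell-high on the right of each panel, with open circles for T cell-high 2 and 4 and numbers naming the library. The ratios to Cyp7b1 do not overlap between the groups, whereas in the ratios to Cyp27a1 T cell-high 2 and 4 lie among or beside the T cell-low libraries.

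Hsd3b7, the steroid dehydrogenase that acts after the first hydroxylation in either route (chromosome 7, 127800604 to 127803802), fell. It had 1332, 334, 593 and 426 scaled counts in T cell-low 1, 2, 3 and 4, and its lowest, median and highest values in T cell-high livers were 1095, 1725 and 2340. T cell-low 2, 3 and 4 lay below every T cell-high library, whereas T cell-low 1 lay above T cell-high 2. The means were 671 ± 453 (SD, n = 4) in T cell-low livers and 1737 ± 435 (SD, n = 6) in T cell-high livers. The mean log2 values differed by -1.54 (SE 0.34, adjusted p = 0.0197). Leaving out T cell-low 2 or T cell-low 4 ended the call (adjusted p = 0.0775 and 0.0714), and leaving out T cell-low 1 lowered the adjusted p to 0.000285. Of the 50-base words at the ends of Hsd3b7 transcripts 64.3% also occur in Gm49388, an annotated transcript on the same strand that runs through it and was not analysed here, so the value may hold reads of either. Akr1d1, the reductase that follows it (chromosome 6, 37530173 to 37568815), had 627, 614, 1064 and 415 scaled counts in T cell-low livers. Its lowest, median and highest values in T cell-high livers were 856, 1071 and 1399, so that T cell-low 3 lay among them and the other T cell-low libraries below. It did not pass (-0.74, SE 0.25, adjusted p = 0.0650). Akr1d1 passed with T cell-low 3 left out (adjusted p = 0.0440), when 4.58% of all tested genes were called. With T cell-low 4 left out its log2 fold change was -0.53 (adjusted p = 0.177).

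The peroxisomal enzymes did not pass against all T cell-high libraries. Amacr, a racemase that sets the side chain in the form that can be shortened (chromosome 15, 10981756 to 10996626), had 55.8, 27.9, 58.6 and 38.0 scaled counts in T cell-low livers. In T cell-high livers it had 108 to 188 in libraries 1, 3, 5 and 6 and 39.7 and 69.1 in libraries 2 and 4. The higher libraries were the same as for Cyp27a1. Their gap was 0.64 on the log2 scale, below the 1 log2 unit used above to define the division. T cell-high 2 lay within the T cell-low range and T cell-high 4 above it. The log2 fold change was -1.18 (SE 0.40, adjusted p = 0.0641). It was -1.63 against T cell-high 1, 3, 5 and 6 and -0.27 against T cell-high 2 and 4. These values are descriptions, since the libraries were divided by their values, and no call on them supports a difference. Leaving out T cell-high 2 gave an adjusted p of 0.0178, and leaving out T cell-low 1 gave 0.0385. Scp2, whose long form is the thiolase of the last step of side chain shortening (chromosome 4, 108043839 to 108144998), had 5460, 2543, 3355 and 2314 scaled counts in T cell-low livers. Its lowest, median and highest values in T cell-high livers were 4480, 5415 and 6733. T cell-low 1 lay within that range and the other T cell-low libraries below it. The log2 fold change was -0.76 (SE 0.24, adjusted p = 0.0544), and it passed with T cell-low 1 or T cell-high 2 left out (adjusted p = 0.00292 and 0.0401). Its 3′ end also serves the short sterol carrier form, and 45.7% of its end words occur in the pseudogene Scp2-ps2, so reads of these cannot be told apart. Podn, annotated on the same strand, also overlaps the last 1000 bases of Scp2, but shares no end words with it.

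The amidation enzymes differed least. Slc27a5, the ligase that activates bile acids with coenzyme A (chromosome 7, 12988346 to 12998192), had 2936 to 4971 scaled counts in T cell-low livers, against 3962 to 5357 in T cell-high livers. Its log2 fold change was -0.34 (SE 0.19, adjusted p = 0.221, 95% confidence interval -0.76 to 0.07). Baat, which transfers taurine or glycine to the activated acid (chromosome 4, 49489422 to 49506557), had 544 to 1326 scaled counts in T cell-low livers, against 911 to 1300 in T cell-high livers. All 6 T cell-high libraries lay within the range of the T cell-low livers, and the log2 fold change was -0.36 (SE 0.23, adjusted p = 0.281, 95% confidence interval -0.87 to 0.14). With T cell-low 4 left out the log2 fold change of Baat was -0.12. These intervals leave room for a decrease, and do not show that the enzymes were alike in the groups.

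With the comparators taken apart, 5 of the 10 enzymes were called lower and 0 higher against T cell-high 1, 3, 5 and 6, when 23.6% of all tested genes were called. They were Cyp27a1, Cyp7b1, Hsd3b7, Amacr and Scp2. The division was made from the values, and Cyp27a1 and Amacr are low in the libraries it leaves out, so these calls follow in part from the choice of libraries and support no difference. Against T cell-high 2 and 4, 0 of 10 were called by limma, as were 0 of all 11057 genes tested there, with 1 enzyme (Cyp7b1) and 1027 of all genes (9.29%) at an unadjusted p below 0.05. These comparisons share the T cell-low libraries. Markers of inflammation moved with the groups too. Against all T cell-high libraries 5.39% of all tested genes were called higher. Of 14 acute phase genes 11 rose and 0 fell, and they summed to 342512 to 497683 scaled counts in T cell-low livers, against 145371 to 277431 in T cell-high livers. Of 10 neutrophil markers 4 could be tested and all 4 rose. The whole list summed to 651 to 1753 in T cell-low livers, against 42.6 to 211 in T cell-high livers, with Mpo listed at 0 in every T cell-high library. Genes this low in T cell-high livers may pass the filter mainly through their T cell-low values, so the 4 rises are descriptions. The part of acute phase and neutrophil transcripts in the enzyme differences was not tested.

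Other enzymes and carriers of bile acid synthesis were read from a list of 12 genes, of which 10 could be tested, Ch25h being listed at 0 in every library and Cyp46a1 below the filter. Of the 10, 3 fell and 0 rose, with a list median of -0.57, when 7.39% of all tested genes were called lower. Akr1c6, a hydroxysteroid dehydrogenase of mouse liver, had 3264, 273, 1599 and 247 scaled counts in T cell-low 1, 2, 3 and 4, against 3187 to 6181 in T cell-high livers (log2 change -2.48, SE 0.61, adjusted p = 0.0265). T cell-low 1 lay within the T cell-high range and the other 3 below it. Abcd3, which carries bile acid intermediates into peroxisomes, had 2394, 1004, 1658 and 731 scaled counts, against 2233 to 4069 (-1.23, SE 0.30, adjusted p = 0.0247). Acot8, a peroxisomal thioesterase, had 185, 98.5, 73.1 and 66.6 scaled counts, against 175 to 265 (-1.10, SE 0.28, adjusted p = 0.0286). Again T cell-low 1 was the library within the T cell-high range, for Abcd3 and Acot8 alike. With T cell-low 2 left out none of the 3 passed (adjusted p = 0.0973 for Akr1c6, 0.0935 for Abcd3 and 0.0860 for Acot8). Cyp2c70, which makes the muricholic acids of mice, had 1608 to 4860 scaled counts in T cell-low livers, against 3648 to 5841 in T cell-high livers (adjusted p = 0.0848), and Cyp39a1, another oxysterol hydroxylase, had 85.6 to 353, against 79.8 to 164 (adjusted p = 0.136).

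Among 18 regulators of bile acid synthesis 2 fell, 2 rose and 14 did not pass, with a median of -0.20. Of all tested genes 7.39% were called lower and 5.39% higher, so these counts are not read as a result about the list. Nr0b2, the repressor SHP, had 92.0, 6.86, 20.3 and 3.23 scaled counts in T cell-low livers. In T cell-high livers it had 157 to 264 in libraries 1, 3, 5 and 6 and 38.0 and 54.6 in libraries 2 and 4, so that T cell-low 1 lay between these sets and the other T cell-low libraries below both. The log2 fold change was -2.96 (SE 0.78, adjusted p = 0.0326). Against T cell-high 2 and 4 the log2 fold change of Nr0b2 was -1.54 (SE 1.08), which is a description and supports no difference. Its activator FXR (Nr1h4) had 272 to 382 scaled counts in T cell-low livers, against 290 to 377 in T cell-high livers (0.08, SE 0.18, adjusted p = 0.783). Nr1h3, the oxysterol receptor LXR alpha, which induces Cyp7a1 in rodents, had 697, 198, 264 and 233 scaled counts, against 461 to 995 in T cell-high livers (-1.25, SE 0.33, adjusted p = 0.0335). Klb, the co-receptor through which the gut hormone FGF15 lowers Cyp7a1, had 138, 520, 466 and 489 scaled counts, against 131 to 196 (1.18, SE 0.34, adjusted p = 0.0401). Its partner Fgfr4 had 32.2 to 117, against 77.8 to 193 (-1.09, SE 0.35, adjusted p = 0.0556). Onecut1, a hepatocyte transcription factor, had 158 to 345 scaled counts in T cell-low livers, against 54.8 to 124 in T cell-high livers, with no overlap (1.41, SE 0.29, adjusted p = 0.0169). Hnf4a and Nr5a2, whose words were found in the Cyp8b1 promoter, did not pass (adjusted p = 0.590 and 0.456). T cell-low 1 lay within the T cell-high range for Nr0b2, Nr1h3 and Klb, and of the 18 regulators 0 were called with T cell-low 2 left out and 9 with T cell-low 1 left out.

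**Figure D4:**
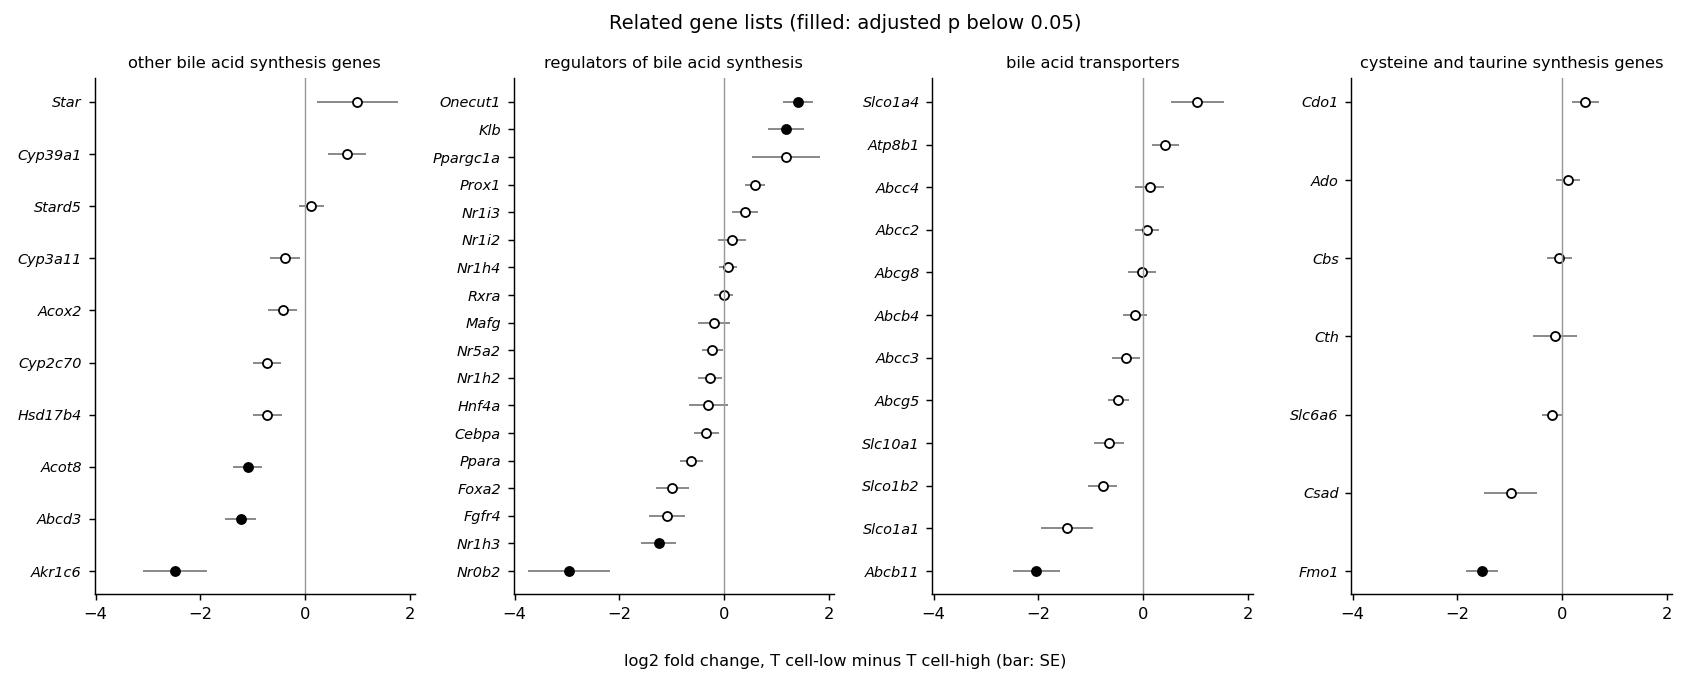
Log2 fold change, T cell-low minus T cell-high, with its SE, of the tested genes of 4 related lists, filled where the adjusted p was below 0.05. Akr1c6, Nr0b2 and Abcb11 have the lowest called values of their lists, and Onecut1 and Klb are the regulators that rose.

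Transport of bile acids crosses this set at the hepatocyte membrane. Of 12 tested transporters 1 fell and 0 rose (median -0.24), when 7.39% of all tested genes were called lower. This count is near that share and is not read as a result about the list. The gene that fell was the export pump Abcb11, with 1620, 328, 574 and 194 scaled counts in T cell-low 1, 2, 3 and 4, against 1592 to 2577 in T cell-high livers (-2.04, SE 0.45, adjusted p = 0.0196). T cell-low 1 lay within the T cell-high range and the other T cell-low libraries below it, and with T cell-low 2 left out Abcb11 did not pass (adjusted p = 0.0775).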

How the data were processed

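Total liver RNA had been made into 3′ end counting libraries (QuantSeq FWD), per the labels' protocols. STAR, DESeq2 and the build mm10 are named in the submitters' processing notes, without versions. For the read counter and the annotation, nothing is given in the sources used here. Each deposited value is a signal per gene and library, the authors' count after scaling. The values are not whole and could not be turned back into reads, so depth in reads is unknown. Precision is therefore given by the spread between libraries.

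Groups and replicate numbers came from the sample titles. Genes with a mean of at least 10 were compared as log2(value + 1) with limma's moderated test (limma 3.58.1, R 4.3.3), with a variance trend and group as the only term. Tests were two-sided, adjusted by Benjamini-Hochberg over all genes tested and called below 0.05. The procedure was tested on simulated data with independent spread in each library, which lack the division of the T cell-high libraries. Enzymes and gene lists were chosen with earlier results of these data known. Named genes were the 10 enzymes and, in the related lists, up to 4 called genes of lowest adjusted p. Other genes, and the promoter words, were chosen after values or sequences were seen. Gene positions follow GENCODE vM21 (GRCm38, the assembly of mm10). End words are all runs of 50 bases in the final 400 bases of each transcript. Figures were drawn with matplotlib 3.10.9. Alternatives covered scaling, filter, pseudocount, variance model, library weights, a replicate block and omission of libraries. Same-numbered libraries did not deviate together, so the numbers were not taken as pairs.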

Additional observations from a re-analysis of the deposited data

How the results depend on the processing

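Direction held for each of the 10 enzymes under every other scaling, filter, pseudocount, variance model, weighting and block tried, and with any 1 library left out. In 2 comparisons chosen after seeing the data, the log2 fold change of Cyp27a1 turned to 0.012 without T cell-high 1, 3, 5 and 6, and the direction of the other 9 held there. Of the 10 enzymes 2 were called, of all genes 1420 and of the genes in the 4 related lists 9. With libraries scaled to equal totals, which moved the median log2 fold change of all genes to -0.11, 5 enzymes were called, all of them lower. Of all tested genes 13.4% were then called, 9.61% lower and 3.79% higher. Without a variance trend 852 genes were called. Library weights gave 7 enzymes, 3266 genes and 16 list genes. Leaving out 1 library gave 0 to 6 enzymes, 109 to 3633 genes and 0 to 22 list genes. Without T cell-high 2 and 4 the counts were 5 enzymes and 2628 genes. Without T cell-high 1, 3, 5 and 6 limma called 0 enzymes, 0 list genes and 0 genes (1027 at an unadjusted p below 0.05), and the ratios of Cyp7a1 and Cyp8b1 to Cyp27a1 then differed by 0.42 and 0.69, against 2.02 and 2.24 with all libraries. Fewer libraries enter these fits, and no other cause was tested. With the replicate number as a block 1 enzyme (Cyp7b1), 193 genes and 3 list genes were called. The deviations of same-numbered libraries correlated at 0.10, 0.21, -0.10 and -0.15 for numbers 1 to 4, and 1 of 8 libraries correlated best with its own number, so a call lost under the block is not read as a weaker effect. Equal totals moved the split of called genes to 421 higher and 1068 lower, against 599 and 821. For low genes such as Cyp7b1 and Nr0b2 the limit is the few scaled counts in T cell-low livers.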

Other observations

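Genes that supply taurine, the amino acid joined to bile acids in mice, were read from a list of 8. Of 7 tested genes of cysteine and taurine synthesis 1 fell and 0 rose (median -0.13), when 7.39% of all tested genes were called lower. Fmo1, which oxidises hypotaurine to taurine, had 293, 118, 203 and 84.4 scaled counts in T cell-low 1, 2, 3 and 4, against 333 to 623 in T cell-high livers, with no overlap (log2 change -1.52, SE 0.31, adjusted p = 0.0170). It did not pass with T cell-low 2 left out (adjusted p = 0.0683). Against T cell-high 2 and 4, where 0 of all tested genes passed, its log2 fold change was -1.34, which is a description. Csad, the decarboxylase that makes hypotaurine, had 7513 scaled counts in T cell-low 1, with 884 to 2322 in T cell-low 2, 3 and 4, against 2915 to 6859 in T cell-high livers (adjusted p = 0.181). Cdo1, the first enzyme of the path, had 14461 in T cell-low 1 and 27625 to 34766 in the other 3, against 15217 to 25779 (adjusted p = 0.237). In T cell-low 2, 3 and 4 Cdo1 thus lay above and Csad below every T cell-high library, while T cell-low 1 lay on the far side of the T cell-high range for both.

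Markers of liver zones were read in the same way, beside 7.39% of all tested genes called lower and 5.39% called higher. Of 10 pericentral markers 1 fell (Cyp1a2, -1.92, adjusted p = 0.0263) and 0 rose, with a median of -0.53, and they summed to 18429 to 27568 scaled counts in T cell-low livers, against 33637 to 47366 in T cell-high livers. These sums did not overlap, although 9 of the 10 genes did not pass. Of 9 periportal markers 2 fell (Cyp2f2, -1.39, and Gls2, -1.29), 1 rose (Arg1, 1.04) and 6 did not pass, with a median of -0.04. T cell-low 1 had a periportal sum of 39449, while T cell-low 2, 3 and 4 had 64623 to 95194, against 40972 to 62991 in T cell-high livers, so that T cell-low 1 lay below and the other 3 above every T cell-high library.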
